A study of Mus musculus with 3 samples.

Results

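The genes described here are 10 members of the tumour necrosis factor (TNF) and NF-kB feedback circuit, *Tnf*, *Tnfrsf1a*, *Tnfrsf1b*, *Nfkb1*, *Nfkb2*, *Relb*, *Nfkbia*, *Nfkbiz*, *Tnfaip3* and *Birc3*. They were taken by symbol from the 32285 genes counted, by a rule that names them and uses no threshold on measured values, although the list was drawn up with earlier results of these data known. All 10 were found, and all had UMIs (unique molecular identifiers, one per captured transcript) in each of the 3 libraries. The libraries are droplet single-cell RNA sequencing of glomeruli, the filtering units of the kidney, with 1 library per group. The first is from MRL/lpr mice, the lupus nephritis model group of the study, which carry the lpr mutation of *Fas* and develop a spontaneous lupus-like kidney disease. The second is from MRL/lpr mice given hUC-MSCs, mesenchymal stem cells from human umbilical cord, through the tail vein, with single-cell plots dated to day 21 after treatment. The third is a control library labelled only as a blank control, whose strain is not named in the labels. The mice of the study were female, were bought at 6 to 8 weeks of age and were taken as the model group at about 16 weeks, when nephritis had developed, but the age and the number of the mice behind each library are not given separately in the sources used here. Since each group is 1 library without a replicate, the conditions were compared without a test, and every interval below is a 95% interval that covers counting error only.

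TNF is a cytokine made mainly by activated myeloid and lymphoid cells, and it signals through the receptors TNFR1 (*Tnfrsf1a*), found on most cells, and TNFR2 (*Tnfrsf1b*), found mostly on immune and endothelial cells. Receptor engagement frees NF-kB dimers from inhibitors of the IkB family, and NF-kB then switches on its own brakes, among them the inhibitor IkBα (*Nfkbia*), the ubiquitin-editing enzyme A20 (*Tnfaip3*) and the ubiquitin ligase cIAP2 (*Birc3*). *Nfkb1* and *Nfkb2* encode the precursors of the p50 and p52 subunits, *Relb* encodes the partner of p52 in the alternative pathway, and *Nfkbiz* encodes the nuclear protein IkBζ, which helps NF-kB induce a second set of genes. In lupus nephritis, glomerular inflammation is accompanied by infiltrating myeloid cells and T cells, which are known sources of TNF.

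NF-kB dimers bind a 10-base sequence known as the kappa B consensus, and the promoters of *Nfkbia*, *Tnfaip3* and *Nfkb2* are shown because they hold it. *Nfkbia* and *Tnfaip3* are also the members on which the comparisons below turn. Each window runs from 250 bases before to 50 bases after the start site in RefSeq (GRCm38.p6), on the strand of the gene. Capitals mark every match to the consensus on either strand, and overlapping matches are merged.
Nfkbia, chr12:55492598-55492897, minus strand: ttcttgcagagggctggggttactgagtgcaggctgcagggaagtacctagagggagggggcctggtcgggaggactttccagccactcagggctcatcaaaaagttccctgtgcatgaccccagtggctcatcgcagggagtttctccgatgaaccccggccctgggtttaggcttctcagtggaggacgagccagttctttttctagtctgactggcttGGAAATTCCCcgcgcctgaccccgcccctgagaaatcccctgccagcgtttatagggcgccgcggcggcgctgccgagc
Tnfaip3, chr10:19015361-19015660, minus strand: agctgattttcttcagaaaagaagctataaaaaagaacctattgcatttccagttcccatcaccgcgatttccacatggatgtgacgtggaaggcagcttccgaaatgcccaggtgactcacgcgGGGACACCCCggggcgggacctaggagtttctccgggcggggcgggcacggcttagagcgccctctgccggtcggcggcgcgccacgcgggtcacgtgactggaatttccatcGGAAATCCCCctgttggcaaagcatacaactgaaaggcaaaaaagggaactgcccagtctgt
Nfkb2, chr19:46304487-46304786, plus strand: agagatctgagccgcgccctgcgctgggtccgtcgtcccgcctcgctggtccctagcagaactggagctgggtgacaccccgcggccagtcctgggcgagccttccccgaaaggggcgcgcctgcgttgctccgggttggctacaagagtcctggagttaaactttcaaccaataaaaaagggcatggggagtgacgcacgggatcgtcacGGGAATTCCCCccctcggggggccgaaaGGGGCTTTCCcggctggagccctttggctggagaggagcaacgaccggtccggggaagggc
In *Nfkbia* the match began at position -29 from the start site, in *Tnfaip3* at -125 and -12, and in *Nfkb2* at -39 and -11. The *Tnf* promoter is shown beside them as the ligand, and no match lies in its window.
Tnf, chr17:35201958-35202257, minus strand: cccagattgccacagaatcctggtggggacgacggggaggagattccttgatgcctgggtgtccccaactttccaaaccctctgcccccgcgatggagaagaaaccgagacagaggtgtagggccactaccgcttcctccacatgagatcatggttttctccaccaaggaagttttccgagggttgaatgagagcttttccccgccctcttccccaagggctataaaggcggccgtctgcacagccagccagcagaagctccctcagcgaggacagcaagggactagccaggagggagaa
Of all 32851 promoter windows of this length, 4.51% held a match, against 5 of the 10 windows of the members, which belong to 3 of the 7 members with a window, and no match says only that these letters are absent from these 300 bases. All 3 windows of *Nfkb2* held a match, the downstream pair of which overlap and share a site, the second window of *Tnfaip3* held none, *Tnfrsf1a*, *Tnfrsf1b* and *Birc3* had no match, and *Nfkb1*, *Relb* and *Nfkbiz* are named only. The genes lie on chromosomes 17 (*Tnf*), 6 (*Tnfrsf1a*), 4 (*Tnfrsf1b*), 3 (*Nfkb1*), 19 (*Nfkb2*), 7 (*Relb*), 12 (*Nfkbia*), 16 (*Nfkbiz*), 10 (*Tnfaip3*) and 9 (*Birc3*), and all are protein-coding. *Nfkb2* shares 299 bases with *Psd* and 1292 bases with *AC114539.1*, both on the opposite strand, and *Nfkb1* shares 3897 bases with *Gm43430* on the same strand. The bearing of these overlaps on the UMI counts was not tested.

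The libraries held 94903163 (control), 103319588 (MRL/lpr) and 90812138 (MRL/lpr+hUC-MSC) UMIs. Barcodes with at least 1000 UMIs and at most 10% mitochondrial UMIs numbered 11018, 14109 and 16586, with medians of 5069, 3716 and 2727 UMIs, so the treated library was the shallowest per cell. Cells were assigned to classes by counts of distinct marker genes, and 32676 of the 41713 barcodes were assigned. Endothelial-like cells numbered 6074, 4885 and 6597, mesangial-like cells 943, 1548 and 1588, and podocyte-like cells 2465, 1060 and 234, in control, MRL/lpr and MRL/lpr+hUC-MSC. Macrophage or monocyte-like cells numbered 46, 1268 and 2138, neutrophil-like cells 29, 290 and 223, and T cell-like cells 97, 715 and 537. No class with at least 50 cells had markers of another class among its 10 leading genes by fold, but the endothelial-like class had none of its own markers there in any library, and neither did the mesangial-like and distal nephron or collecting duct-like classes of control. The median endothelial-like cell held 7, 7 and 6 of its 8 markers, and the median mesangial-like cell 8, 6 and 6. In the mesangial-like class 6.15%, 20.6% and 25.7% of cells sat at the limit of the rule, in the endothelial-like class 3.42%, 10.7% and 13.0%, and in the macrophage or monocyte-like class 38.2% (MRL/lpr) and 41.3% (MRL/lpr+hUC-MSC), so the classes are ranges and not sharp types. Barcodes held back because a second class came within the margin made up 6.20%, 18.4% and 18.8%. Pairs of libraries shared 35 to 61 barcodes, against 22.9 to 34.4 if barcodes were drawn independently. The study states about 8000 captured cells, and its limits of 200 to 3000 genes and 10% mitochondrial UMIs leave 9914 (control), 50876 (MRL/lpr) and 32596 (MRL/lpr+hUC-MSC) barcodes of these unfiltered matrices, or 682, 1048 and 716 with at most 5% ribosomal UMIs as well. *Fas* itself had 372, 418 and 417 CPM (UMIs of the gene per 1000000 UMIs of the class) in endothelial-like cells of the 3 libraries, so its level does not tell the lpr libraries from the control. Barcodes with 1 to 100 UMIs, called empty droplets below, give the profile of RNA outside cells, and erythroid-like cells, which are expected to lack these genes, serve as a second background.

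*Tnf*, the ligand, was highest in neutrophil-like cells, followed by macrophage or monocyte-like cells, in both MRL/lpr libraries. In control these classes had 29 and 46 cells, under the minimum of 50, with 716 (525 to 956) and 279 (216 to 355) CPM. Its level in neutrophil-like cells was 247 (216 to 282) CPM in MRL/lpr and 232 (195 to 275) CPM in MRL/lpr+hUC-MSC, and in macrophage or monocyte-like cells 85.5 (78.9 to 92.6) and 72.8 (67.4 to 78.6) CPM. Endothelial-like cells had 19.8, 28.2 and 16.3 CPM, and mesangial-like cells 14.0, 20.8 and 9.90 CPM, in control, MRL/lpr and MRL/lpr+hUC-MSC. The neutrophil-like and macrophage or monocyte-like levels in MRL/lpr were apart from each other and from every other class, whereas endothelial-like, T cell-like and mesangial-like cells overlapped as neighbours in that order. In MRL/lpr+hUC-MSC the macrophage or monocyte-like interval overlapped that of T cell-like cells, at 58.8 (45.9 to 74.3) CPM. Empty droplets had 12.7, 27.4 and 30.4 CPM of *Tnf*, so the endothelial-like level was above this background in control, close to it in MRL/lpr and below it in MRL/lpr+hUC-MSC. Podocyte-like cells had 0.632, 6.77 and 8.37 CPM, below the empty droplets in each library. After each cell was thinned to 1000 UMIs, 19.0% (14.6 to 24.0%) of neutrophil-like and 10.8% (9.15 to 12.6%) of macrophage or monocyte-like cells of MRL/lpr held a *Tnf* UMI, against 41.0% and 28.6% before thinning. None of the 224 erythroid-like cells did after thinning, which allows a share of cells with a UMI of up to 1.34% by counting error, and 0.893% did before thinning, at a median depth of 3622 UMIs against 1976 in neutrophil-like and 5037 in macrophage or monocyte-like cells.

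The cells that held the *Tnf* UMIs differed between libraries. Endothelial-like cells held 52.4% (49.5 to 55.2%) of the 1211 *Tnf* UMIs in control, 24.8% (23.3 to 26.5%) of 2789 in MRL/lpr and 20.3% (18.6 to 22.0%) of 2167 in MRL/lpr+hUC-MSC. Macrophage or monocyte-like cells held 5.45% (4.24 to 6.88%), 22.1% (20.5 to 23.6%) and 30.7% (28.8 to 32.7%). The endothelial-like share was the larger of the pair in control and in MRL/lpr, and the macrophage or monocyte-like share in MRL/lpr+hUC-MSC. The macrophage or monocyte-like share was lowest in control, where the level per cell, on 46 cells, was the highest of the 3. These shares follow the cell numbers of the classes as well as the level per cell, and isolation of glomeruli and the cut at 1000 UMIs can set the cell numbers. Neutrophil-like cells held 3.80%, 7.89% and 6.28% of the *Tnf* UMIs.

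**Figure D1:**
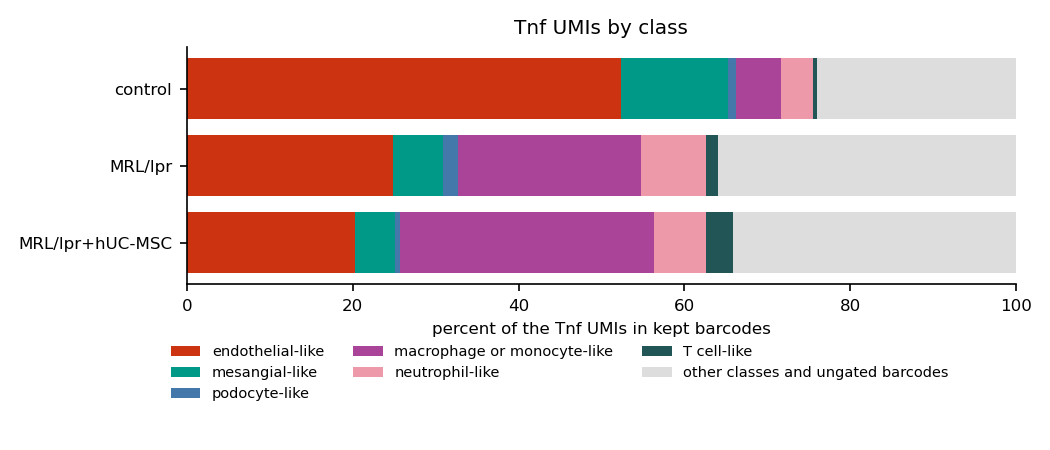
Share of the *Tnf* UMIs of all kept barcodes (x axis, percent) that each class held, 1 bar per library and 1 colour per class. The endothelial-like share was 52.4% in control, 24.8% in MRL/lpr and 20.3% in MRL/lpr+hUC-MSC, and the macrophage or monocyte-like share was 5.45%, 22.1% and 30.7%.

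*Tnfrsf1a*, which encodes the broadly expressed receptor TNFR1, was found in all of the classes described. Endothelial-like cells had 153, 129.8 and 114 CPM, mesangial-like cells 103, 104 and 117 CPM, and macrophage or monocyte-like cells 92.9 (MRL/lpr) and 80.5 (MRL/lpr+hUC-MSC) CPM. In MRL/lpr it was highest in neutrophil-like cells, at 177 (151 to 207) CPM. Podocyte-like cells had 23.8, 24.7 and 34.9 CPM, and T cell-like cells 8.52, 23.9 and 19.3 CPM. In control and in MRL/lpr, endothelial-like cells were above mesangial-like cells, and in MRL/lpr+hUC-MSC these classes and neutrophil-like cells overlapped. Empty droplets had 77.1, 78.8 and 104 CPM, which is above the podocyte-like and T cell-like levels in each library and above the macrophage or monocyte-like level of MRL/lpr+hUC-MSC. *Tnfrsf1b*, which encodes the inducible receptor TNFR2, had a different distribution. In MRL/lpr it was 211 CPM in neutrophil-like, 125 in macrophage or monocyte-like, 49.7 in NK cell-like and 36.8 in T cell-like cells, against 8.08 in endothelial-like and 5.38 in mesangial-like cells. Empty droplets had 8.55, 29.8 and 49.0 CPM of *Tnfrsf1b*. The endothelial-like levels of 2.59, 8.08 and 18.7 CPM were below these values in every library, and the immune classes other than NK cell-like cells of MRL/lpr+hUC-MSC and T cell-like cells of that library were above them.

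Among the transcription factor genes, *Nfkb1* (p105, the precursor of p50) was high in mesangial-like, T cell-like, neutrophil-like and macrophage or monocyte-like cells. Mesangial-like cells had 162 (155 to 169.7) CPM in control, 167 (159 to 176) in MRL/lpr and 111 (104 to 117) in MRL/lpr+hUC-MSC. Endothelial-like cells had 72.1, 81.5 and 102 CPM, close to the 72.7, 83.3 and 102 CPM of the empty droplets. In mesangial-like cells the treated level was the lowest, while the control and MRL/lpr intervals overlapped. *Nfkb2* (p100, the precursor of p52) had 34.5, 49.0 and 26.3 CPM in mesangial-like cells and 53.5 and 47.3 CPM in macrophage or monocyte-like cells. In MRL/lpr the neutrophil-like, macrophage or monocyte-like and mesangial-like levels of *Nfkb2* overlapped as neighbours and endothelial-like cells came next at 26.7 CPM. *Relb* in control was highest in mesangial-like cells among the classes with at least 50 cells, at 122 (116 to 129) CPM, and was 81.6 (75.5 to 88.0) CPM in MRL/lpr and 39.4 (35.7 to 43.4) CPM in MRL/lpr+hUC-MSC. The 3 mesangial-like intervals of *Relb* did not overlap, and the treated level equalled that of its empty droplets, 39.4 CPM. In endothelial-like cells *Relb* had 73.6, 58.4 and 48.8 CPM, in the same order.

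*Nfkbia*, the gene of the inhibitor IkBα and a classical NF-kB target, was highest in neutrophil-like cells with 2119 (2025 to 2217) CPM in MRL/lpr and 1527 (1429 to 1631) CPM in MRL/lpr+hUC-MSC. Mesangial-like cells had 1009 (991 to 1028) CPM in control, 1376 (1350.3 to 1401) in MRL/lpr and 207 (198 to 215) in MRL/lpr+hUC-MSC. Endothelial-like cells had 910.0 (899.6 to 920.5), 1149 (1136 to 1163) and 552 (543 to 561) CPM. Mesangial-like cells were thus above endothelial-like cells in control and MRL/lpr, and below them in MRL/lpr+hUC-MSC. Empty droplets had 435, 541 and 427 CPM, so the treated mesangial-like level was below its background and the other mesangial-like levels were above theirs. After thinning to 1000 UMIs, 52.0% (48.7 to 55.2%), 64.0% (61.6 to 66.4%) and 19.3% (17.4 to 21.3%) of mesangial-like cells held a *Nfkbia* UMI, against 84.7%, 88.2% and 55.7% before thinning. In erythroid-like cells the thinned shares were 0.635%, 6.25% and 2.76%, at median depths of 5464, 3622 and 2735 UMIs against 6990, 3760 and 4225 in mesangial-like cells. The mesangial-like shares were above the erythroid-like shares in all 3 libraries, and the share of the treated library was the lowest of them. The median mesangial-like cell held 5, 4.5 and 1 *Nfkbia* UMIs, the highest cell 127, 64 and 15, and cells with 5 or more UMIs held 94.6%, 88.0% and 38.8% of the *Nfkbia* UMIs of the class.

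*Nfkbiz* (IkBζ) was also highest in neutrophil-like cells in MRL/lpr, at 591 CPM, followed by mesangial-like cells. Mesangial-like cells had 406 (395 to 418), 528 (512 to 544) and 149.7 (142 to 157) CPM, endothelial-like cells 241, 268 and 144 CPM, and macrophage or monocyte-like cells 387 and 206 CPM. Empty droplets had 156, 223 and 160.1 CPM. Mesangial-like and endothelial-like cells were above their empty droplets in control and MRL/lpr and below them in MRL/lpr+hUC-MSC, and macrophage or monocyte-like cells were above them in both MRL/lpr libraries.

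*Tnfaip3*, the gene of A20, which removes the ubiquitin chains that carry the TNF receptor signal, stood highest in mesangial-like cells of MRL/lpr. Mesangial-like cells had 78.9 (73.8 to 84.3) CPM in control, 392 (379 to 406) in MRL/lpr and 75.7 (70.5 to 81.1) in MRL/lpr+hUC-MSC, and thinned shares of 6.26% (4.8 to 8.0%), 27.5% (25.3 to 29.8%) and 7.81% (6.54 to 9.24%). Endothelial-like cells had 14.2, 93.4 and 84.6 CPM. Over all mesangial-like cells only the untreated MRL/lpr library was above control, whereas in endothelial-like cells both MRL/lpr libraries were. In the mesangial-like cells with few dissociation stress UMIs, described below, the treated library was above control too. Empty droplets had 23.6, 137 and 117 CPM, so the mesangial-like level was above the background in control and MRL/lpr and below it after treatment, and the endothelial-like level was below it in each library. Erythroid-like cells had 0.00, 12.3 and 12.2 CPM, which were below the endothelial-like levels. T cell-like cells had 230.0, 242 and 197 CPM of *Tnfaip3*, with overlapping intervals. *Birc3* (cIAP2) had 249 (239.7 to 258), 179.9 (171 to 189) and 92.1 (86.4 to 98.0) CPM in mesangial-like cells and 49.8, 58.0 and 47.7 CPM in endothelial-like cells. In neutrophil-like cells *Birc3* reached 269.5 CPM in MRL/lpr and 201 CPM in MRL/lpr+hUC-MSC. The mesangial-like levels of *Birc3* were apart from one another in the order control, MRL/lpr, MRL/lpr+hUC-MSC, and all were above the empty droplets at 52.5, 58.3 and 56.3 CPM. The endothelial-like levels of *Birc3* were at or below the empty droplets in each library.

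**Figure D2:**
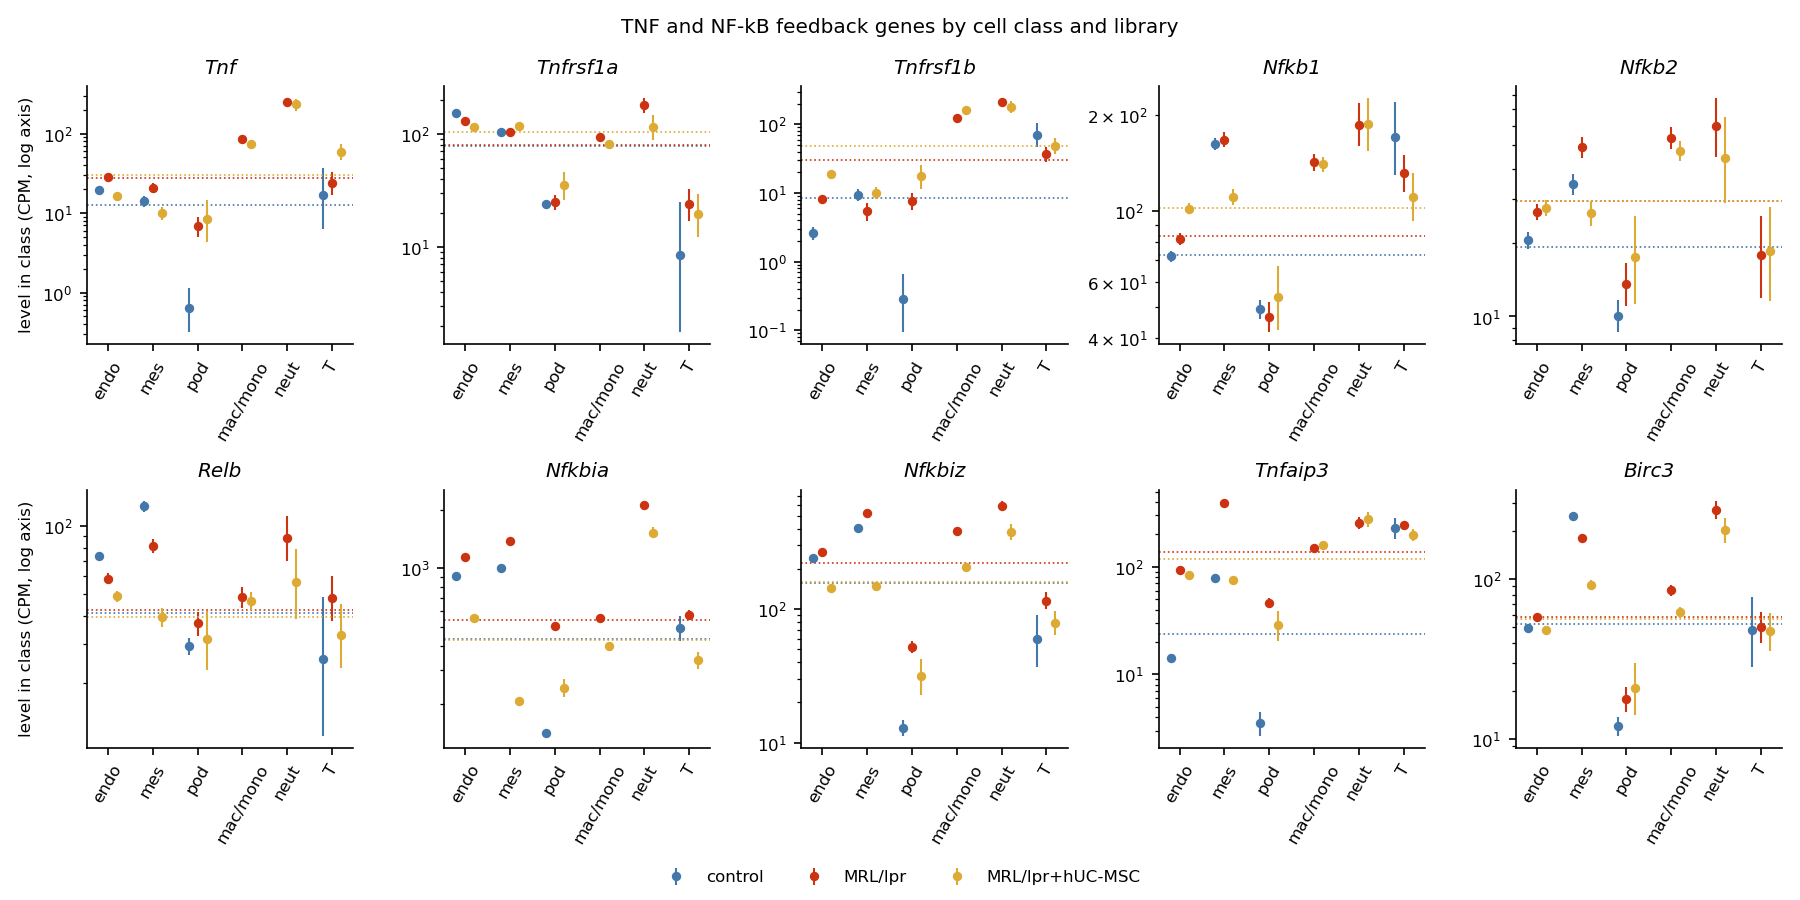
Level of each gene in CPM (y axis, log scale) in the endothelial-like (endo), mesangial-like (mes), podocyte-like (pod), macrophage or monocyte-like (mac/mono), neutrophil-like (neut) and T cell-like (T) classes with at least 50 cells, 1 panel per gene and 1 colour per library. Points are summed UMIs of the class, bars are exact Poisson 95% intervals, dotted lines are the empty droplets of the library in its colour, and levels of 0 cannot be drawn. The mesangial-like *Nfkbia* level of MRL/lpr+hUC-MSC lies below the dotted lines, and the *Tnfaip3* level of MRL/lpr mesangial-like cells lies above all other classes.

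The comparison of MRL/lpr with control asks how the circuit differs between lupus nephritis and control glomeruli. *Tnfaip3* was higher in MRL/lpr in each of the 3 kidney classes, by 6.56-fold in endothelial-like, 4.97-fold in mesangial-like and 13.1-fold in podocyte-like cells. On the log2 scale these ratios of CPM were 2.71 (2.57 to 2.86), 2.31 (2.21 to 2.42) and 3.72 (3.32 to 4.13). Over all cells of a class, several other members were higher in podocyte-like cells, while most were closer to the median of all genes in endothelial-like and mesangial-like cells. That last statement does not hold in the cells with at most 10 UMIs of a dissociation stress list (10 immediate early and heat shock genes) per 1000 UMIs, a choice made after seeing the data, and their values are given beside each class.

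In endothelial-like cells 2 of the 10 members were past 2-fold higher, *Tnfaip3* and *Tnfrsf1b*, against 15.4% of the 15677 genes tested, and none was past 2-fold lower, against 5.42%. The median log2 ratio of the members was 0.28, beside 0.10 for all genes. *Tnfrsf1b* had a log2 ratio of 1.64 (1.27 to 2.03), from 83 UMIs in control and 199 in MRL/lpr. Both of its levels were below the empty droplets, whose own level also differed, and with free RNA subtracted the log2 ratio was -0.13. For *Tnfaip3* it was 2.33 with free RNA subtracted. Macrophage or monocyte markers, summed, were at 6.73 and 156 CPM in these endothelial-like cells and at 40.6 and 814 CPM in the empty droplets, and their part in the *Tnfrsf1b* result was not tested beyond that subtraction. Mesangial markers were at 297 and 773 CPM in these cells and at 1480 and 1541 CPM in the empty droplets. Proximal tubule markers were at 34.7 and 203 CPM and neutrophil markers at 81.7 and 267 CPM in these cells. *Tnfaip3* was highest in mesangial-like cells of MRL/lpr, and the part of these markers in its ratio was not tested. *Tnf* had a log2 ratio of 0.51 (0.35 to 0.67) and *Nfkbia* of 0.34 (0.31 to 0.36). *Relb* at -0.33 (-0.43 to -0.24) and *Tnfrsf1a* at -0.24 (-0.30 to -0.17) were lower in MRL/lpr, and *Nfkb1*, *Nfkb2*, *Nfkbiz* and *Birc3* lay between 0.15 and 0.39. With free RNA subtracted *Nfkb1*, *Nfkbiz* and *Birc3* turned to -0.082, -0.064 and -0.027, and in barcodes with at most 5% ribosomal UMIs (97 control and 52 MRL/lpr cells) they were at 2.26, 1.24 and 1.94, so their small ratios over all cells depend on the setting. The summed stress list was at 38383 CPM in control and 29232 CPM in MRL/lpr, and its part in these ratios was not tested. Among the 810 and 449 endothelial-like cells with few stress-list UMIs *Tnfaip3* was at 3.37 (2.64 to 4.18), *Tnfrsf1b* at 2.85 (1.91 to 3.90), *Nfkbiz* at 1.67 (1.37 to 1.97) and *Tnf* at 1.60 (0.88 to 2.33), all past 2-fold higher in MRL/lpr. The control levels of these genes there, 5.77, 3.85, 46.8 and 8.98 CPM in the same order, were below the control empty droplets. Free RNA was not subtracted in these cells, and the share of all genes past 2-fold was not taken in them. *Nfkb1* was at 0.59 (0.30 to 0.88), *Nfkb2* at 0.91 (0.29 to 1.53) and *Birc3* at 0.86 (0.41 to 1.31), while the intervals of *Nfkbia* at 0.09 (-0.02 to 0.20) and *Tnfrsf1a* at -0.15 (-0.37 to 0.07) included 0. *Relb* turned its direction, to 0.66 (0.23 to 1.09) in these cells and to 1.13 in barcodes with at most 5% ribosomal UMIs, on 97 control and 52 MRL/lpr cells with an interval of -0.20 to 2.41, and *Tnfrsf1a* turned to 0.21 in the latter with an interval that included 0.

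In mesangial-like cells 1 of the 10 members, *Tnfaip3*, was past 2-fold higher, against 11.5% of 13401 genes, and none was past 2-fold lower, against 6.23%. The members had a median log2 ratio of 0.21, beside -0.01 for all genes. *Relb* at -0.58 (-0.72 to -0.45), *Birc3* at -0.47 (-0.56 to -0.38) and *Tnfrsf1b* at -0.80 (-1.34 to -0.28) were lower in MRL/lpr, the last on 105 and 44 UMIs. The mesangial-like *Tnfrsf1b* levels of 9.36 and 5.38 CPM stood beside 8.55 and 29.8 CPM in the empty droplets, and the ratio ran from -3.51 to 0.99 over its 10 alternatives. *Tnf* at 0.57, *Nfkb2* at 0.51, *Nfkbia* at 0.45 and *Nfkbiz* at 0.38 were higher. The intervals of *Nfkb1* at 0.05 (-0.06 to 0.15) and *Tnfrsf1a* at 0.01 (-0.12 to 0.14) included 0. Over all mesangial-like cells the feedback genes therefore did not share a direction, with *Tnfaip3* higher and *Birc3* lower in MRL/lpr. The summed stress list was at 37114 CPM in control and 22060.3 CPM in MRL/lpr, and the macrophage or monocyte markers at 8.12 and 108 CPM, against 40.6 and 814 CPM in the empty droplets. Among the 132 and 107 mesangial-like cells with few stress-list UMIs *Tnfaip3* was at 4.05 (3.12 to 5.14), *Nfkbiz* at 2.80 (2.21 to 3.42) and *Nfkbia* at 1.60 (1.36 to 1.85), so that all 3 were higher in MRL/lpr by more than over all cells. The control levels of these genes there, 15.9, 46.2 and 330 CPM, were below the control empty droplets, and free RNA was not subtracted. There *Nfkb2* was at 1.11 (0.15 to 2.10), *Nfkb1* at 0.96 (0.42 to 1.51) and *Tnf* at 1.07 (-0.05 to 2.24). *Birc3* at -0.39 (-0.91 to 0.11), *Relb* at -0.03 (-0.75 to 0.67) and *Tnfrsf1b* at 0.99 (-0.42 to 2.49) had intervals that included 0, so none of the members lower over all cells was apart from control in these cells. The part of the stress list and of the macrophage or monocyte markers in these ratios was not tested.

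In podocyte-like cells, the filtration epithelium, 5 of the 10 members were past 2-fold higher, against 13.0% of 13209 genes, and none was past 2-fold lower, against 5.40%. Their median log2 ratio was 1.19, beside -0.02 for all genes. The 5 were *Tnfrsf1b* at 4.73 (3.42 to 6.41), *Tnfaip3*, *Tnf* at 3.42 (2.46 to 4.52), *Nfkbiz* at 2.01 (1.77 to 2.26) and *Nfkbia* at 1.83 (1.76 to 1.91). *Tnf* rested on 11 UMIs in control and 49 in MRL/lpr, and *Tnfrsf1b* on 5 and 55. The MRL/lpr levels of these genes in podocyte-like cells, for example 46.0 CPM of *Tnfaip3* and 508 CPM of *Nfkbia*, were below the empty droplets of that library at 137 and 541 CPM. With free RNA subtracted the log2 ratios in podocyte-like cells were 3.75 for *Tnfaip3* and 1.91 for *Nfkbia*. In the same cells the summed macrophage or monocyte markers were at 7.24 and 109 CPM, the neutrophil markers at 5.05 and 96.0 CPM and the mesangial markers at 97.6 and 237 CPM in control and MRL/lpr. The dissociation stress list had a summed level of 7956 CPM in control and 13475 CPM in MRL/lpr podocyte-like cells. Its part in the result was not tested, and in the podocyte-like cells with at most 10 stress-list UMIs per 1000 UMIs (1880 and 399 cells) the log2 ratios were 3.58 for *Tnfaip3*, 2.58 for *Nfkbiz* and 1.25 for *Nfkbia*.

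Smaller classes gave wider intervals. In T cell-like cells *Tnfaip3* had a log2 ratio of 0.08 (-0.27 to 0.44), *Nfkbia* of 0.23 (-0.01 to 0.47), *Nfkbiz* of 0.96 (0.31 to 1.69) and *Tnfrsf1b* of -0.95 (-1.64 to -0.21). In these cells the neutrophil markers, summed, were at 8.52 and 267 CPM, the macrophage or monocyte markers at 62.5 and 231 CPM and the stress list at 3185 and 4453 CPM in control and MRL/lpr, and their part in the ratios was not tested. *Nfkb2* had no UMI in the 97 T cell-like cells of control and 29 in MRL/lpr, which is 2.09-fold higher with a floor of 3 UMIs over the class. A ratio to the floor is a point value and not a lower limit. In proximal tubule-like cells (54 and 545 cells) 6 of the 8 members tested were past 2-fold higher, against 20.9% of 10399 genes, and none was past 2-fold lower, against 3.54%. *Nfkbiz* was at 2.52 (1.46 to 3.85) and *Nfkbia* at 1.52 (0.88 to 2.25). *Nfkb1* was at 10.2 and 26.1 CPM, *Tnfrsf1a* at 12.3 and 25.2 CPM and *Nfkb2* at 2.05 and 8.88 CPM in control and MRL/lpr. *Tnfaip3* had no UMI there in control and 70 in MRL/lpr, which is 3.26-fold higher with the same floor, again a point value. In distal nephron or collecting duct-like cells (90 and 100 cells) *Nfkbia* was at 523 and 315 CPM, a log2 ratio of -0.73 (-0.93 to -0.53), and *Relb* had a ratio of -1.06 (-1.90 to -0.28). *Nfkbiz* at 1.24 (0.83 to 1.66) and *Tnfrsf1a* at 1.23 (0.29 to 2.22) had ratios above 0, and the intervals of *Tnfaip3* at 0.52 (-0.25 to 1.28), *Nfkb1*, *Nfkb2* and *Birc3* included 0. *Tnf* had 13 and 4 UMIs in these cells and *Tnfrsf1b* had none. The leading genes of the class differed between the libraries, with *Krt23*, *Aqp3*, *Slc26a4* and *Kcne1* among the 10 of control and *Pappa2*, *Nos1*, *Aqp2*, *Trpv5* and *Calb1* among those of MRL/lpr, so the class may hold different cells in each and its ratios cannot be told apart from such a difference. No direction of a member is read from this class.

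The comparison of MRL/lpr+hUC-MSC with MRL/lpr asks how the circuit differs after the cell treatment. It shares the untreated MRL/lpr library with the comparison above, so the values of the comparisons are not independent of each other. The members differed most in mesangial-like cells, where *Nfkbia* was 6.66-fold lower, *Tnfaip3* 5.18-fold lower and *Nfkbiz* 3.53-fold lower in the treated library. In endothelial-like cells *Nfkbia* was 2.08-fold and *Nfkbiz* 1.87-fold lower, and in macrophage or monocyte-like cells *Nfkbiz* was 1.87-fold and *Nfkbia* 1.40-fold lower. *Tnfrsf1a* differed by less, at 0.16, -0.19 and -0.21 on the log2 scale in these 3 classes. In barcodes with at most 5% ribosomal UMIs its ratio was 0.82 in mesangial-like cells and turned to 0.87 in endothelial-like cells.

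In mesangial-like cells 5 of the 10 members were past 2-fold lower, against 5.38% of 13542 genes, and none was past 2-fold higher, against 4.28%. The median log2 ratio was -1.01, beside 0.13 for all genes. The 5 were *Nfkbia* at -2.74 (-2.80 to -2.67), *Tnfaip3* at -2.37 (-2.49 to -2.26), *Nfkbiz* at -1.82 (-1.90 to -1.74), *Tnf* at -1.07 (-1.44 to -0.71) and *Relb* at -1.05 (-1.23 to -0.87). Both *Tnf* levels, 20.8 and 9.90 CPM, were below the empty droplets at 27.4 and 30.4 CPM, and *Tnf* was past 2-fold lower in 8 of 10 alternatives, in a range of -1.86 to -0.83. *Birc3* at -0.97 (-1.08 to -0.85), *Nfkb2* at -0.90 (-1.12 to -0.67) and *Nfkb1* at -0.60 (-0.71 to -0.48) were lower by less. The receptors had ratios above 0 over all cells, with *Tnfrsf1b* at 0.89 (0.37 to 1.43) on 44 and 106 UMIs and *Tnfrsf1a* at 0.16 (0.04 to 0.29). Both *Tnfrsf1b* levels, 5.38 and 9.99 CPM, were below the empty droplets at 29.8 and 49.0 CPM, and its ratio ran from -1.18 to 4.21 over 10 alternatives, so no direction is read from it. The markers of smooth muscle or renin cells, summed, were at 166 CPM in control, 368 in MRL/lpr and 670 in MRL/lpr+hUC-MSC mesangial-like cells, beside 367, 177 and 239 CPM in the empty droplets, and their part in the result was not tested.

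The dissociation stress list moved with this result. Its summed level in mesangial-like cells was 37114 CPM in control, 22060.3 in MRL/lpr and 8779 in MRL/lpr+hUC-MSC, and 7 of its 10 genes were past 2-fold lower and 1 higher (*Hspa1b*) in the treated library against MRL/lpr. The same list was at 38383, 29232 and 12819.9 CPM in endothelial-like cells and at 18740.1, 13626 and 10484 CPM in empty droplets, whereas in macrophage or monocyte-like cells it was at 5560 and 5441 CPM. Cells with at most 10 stress-list UMIs per 1000 UMIs numbered 107 of 1548 in MRL/lpr and 1060 of 1588 in MRL/lpr+hUC-MSC in the mesangial-like class. Among them *Nfkbia* was at -2.40 (-2.55 to -2.25), *Tnfaip3* at -1.99 (-2.28 to -1.69), *Tnf* at -1.86 (-2.59 to -1.05) and *Nfkbiz* at -1.29 (-1.54 to -1.04). These members were lower in the treated library in these cells too, *Tnf* by more than in all cells and the other 3 by less. *Relb* was at -0.82 (-1.36 to -0.24), no longer past 2-fold lower. *Nfkb2* was at -1.07 (-1.67 to -0.42), past 2-fold lower in these cells but not in all, and *Nfkb1* at -0.51 (-0.86 to -0.14). *Birc3* at -0.37 (-0.78 to 0.06) had an interval that included 0, and *Tnfrsf1b* at -1.18 (-2.06 to -0.16) had the opposite sign to all cells. The part of the stress list in the result was not tested.

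In endothelial-like cells 1 of the 10 members was past 2-fold higher, *Tnfrsf1b* at 1.21 (0.97 to 1.45), against 6.35% of 15983 genes, and 1 past 2-fold lower, *Nfkbia* at -1.06 (-1.09 to -1.03), against 4.70%. The median log2 ratio was -0.23, beside 0.12 for all genes. *Nfkbiz* at -0.90 (-0.96 to -0.84) and *Tnf* at -0.79 (-0.96 to -0.61) were lower, and *Nfkb1* at 0.32 (0.24 to 0.40) was higher. *Tnfaip3*, at -0.14 (-0.23 to -0.06), was nearly as high in the treated as in the untreated MRL/lpr library, unlike in mesangial-like cells. That difference between the classes has no replicate and was not tested. Among the endothelial-like cells with few stress-list UMIs (449 and 3322 cells) *Nfkbia* was at -0.50 (-0.60 to -0.41), *Nfkbiz* at -0.42 (-0.62 to -0.22), *Tnfaip3* at 0.47 (0.17 to 0.78) and *Tnfrsf1b* at -0.15 (-0.60 to 0.33). *Nfkbia* and *Nfkbiz* were thus lower by less than in all cells, *Tnfaip3* was higher in the treated library, and the interval of *Tnfrsf1b* included 0. The *Tnfrsf1b* level of all treated endothelial-like cells was below that of their empty droplets.

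In podocyte-like cells 1 of the 10 members was past 2-fold higher, *Tnfrsf1b* at 1.20 (0.45 to 1.90), against 4.72% of 11651 genes, and 1 past 2-fold lower, *Nfkbia* at -1.06 (-1.23 to -0.91), against 4.75%. The median log2 ratio was 0.23, beside 0.01 for all genes, and the treated library had 234 podocyte-like cells. Both *Tnfrsf1b* levels, 7.60 and 17.4 CPM, were below the empty droplets at 29.8 and 49.0 CPM. In these podocyte-like cells the neutrophil markers, summed, were at 96.0 and 333 CPM, the macrophage or monocyte markers at 109 and 183 CPM, the smooth muscle or renin cell markers at 67.6 and 194 CPM and the stress list at 13475 and 5644 CPM, in MRL/lpr and MRL/lpr+hUC-MSC, and their part in the ratios was not tested. *Nfkbiz* at -0.73 (-1.21 to -0.28) and *Tnfaip3* at -0.69 (-1.19 to -0.22) were lower, and the intervals of *Tnf*, *Nfkb1*, *Nfkb2*, *Relb* and *Birc3* included 0. In the podocyte-like cells with few stress-list UMIs (399 and 198 cells) *Nfkbia* was at -0.26 (-0.47 to -0.05), *Nfkbiz* at -0.66 (-1.21 to -0.13), *Tnfaip3* at -0.14 (-0.73 to 0.42) and *Tnfrsf1b* at 0.40 (-0.46 to 1.22), so neither 2-fold call held there and the intervals of *Tnfaip3* and *Tnfrsf1b* included 0. In podocyte classes taken from Leiden clusters *Nfkbiz* was at -0.013 and *Tnfaip3* at -0.068, with intervals that included 0.

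In macrophage or monocyte-like cells no member was past 2-fold in either direction, against 2.84% of 12670 genes higher and 5.92% lower. The median log2 ratio was -0.19, beside -0.10 for all genes. *Nfkbiz* at -0.91 (-0.99 to -0.82), *Nfkbia* at -0.48 (-0.55 to -0.42) and *Birc3* at -0.46 (-0.63 to -0.29) were lower, and *Tnfrsf1b* at 0.36 (0.24 to 0.48) was higher. *Tnf* itself was at -0.23 (-0.39 to -0.07), close to the median of all genes. The limit on stress-list UMIs kept 1124 of 1268 and 1887 of 2138 cells of this class, in which *Nfkbiz* was at -0.92 and *Nfkbia* at -0.49. As the limit removed few cells, values close to those of all cells follow from it and are no separate check. The summed stress list was nearly equal between the libraries in this class, but *Hspa1a* at 1.18 and *Hspa1b* at 1.85 were past 2-fold higher in the treated library and *Atf3* at -0.46 and *Ier2* at -0.45 were lower. In MRL/lpr and MRL/lpr+hUC-MSC the class had summed B cell markers at 105 and 21.2 CPM and proximal tubule markers at 141 and 34.3 CPM. Erythroid markers were at 125 and 415 CPM and neutrophil markers at 131 and 202 CPM, and the part of these in the ratios was not tested.

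In neutrophil-like cells *Tnf* was at -0.09 (-0.41 to 0.22), *Tnfaip3* at 0.11 (-0.19 to 0.41), *Nfkbia* at -0.47 (-0.59 to -0.36) and *Nfkbiz* at -0.64 (-0.87 to -0.41). In T cell-like cells *Nfkbia* was at -0.78 (-0.95 to -0.61) and *Nfkbiz* at -0.55 (-0.93 to -0.19), while *Tnf* was at 1.30 (0.71 to 1.90), on 39 UMIs in MRL/lpr and 70 in MRL/lpr+hUC-MSC. The summed stress list was at 7484 and 5891 CPM in neutrophil-like cells and at 4453 and 2256 CPM in T cell-like cells of MRL/lpr and MRL/lpr+hUC-MSC. In T cell-like cells the NK cell markers were at 1214 and 618 CPM, neutrophil markers at 267 and 105 CPM and macrophage or monocyte markers at 231 and 292 CPM. In neutrophil-like cells the distal nephron or collecting duct markers were at 274 and 15.4 CPM, proximal tubule markers at 264 and 64.8 CPM and T cell markers at 67.4 and 131 CPM. The part of the stress list and of these markers in the ratios was not tested. In the neutrophil-like cells with few stress-list UMIs (205 and 197 cells) *Nfkbia* was at -0.28 (-0.41 to -0.15) and *Nfkbiz* at -0.77 (-1.02 to -0.52). In the T cell-like cells with few (637 of 715 and 532 of 537 cells) *Nfkbia* was at -0.71 (-0.89 to -0.54), *Nfkbiz* at -0.53 (-0.92 to -0.14) and *Tnf* at 1.32 (0.71 to 1.96). As the limit removed few T cell-like cells, values close to those of all cells follow from it and are no separate check. *Nfkbia* and *Nfkbiz* were therefore lower in the treated library over all cells of the endothelial-like, mesangial-like, podocyte-like, macrophage or monocyte-like, neutrophil-like and T cell-like classes. Both genes were also lower in the empty droplets of the treated library than in those of MRL/lpr, at the levels given above. The podocyte-like levels, 508 and 243 CPM of *Nfkbia* and 52.0 and 31.4 CPM of *Nfkbiz*, were below the empty droplets of their library. Free RNA was not subtracted in the neutrophil-like and T cell-like classes. *Tnf* was higher in T cell-like cells, with thinned shares of 1.96% (1.07 to 3.26%) and 6.15% (4.27 to 8.52%) of cells against 4.76% and 11.2% before thinning. Leading genes of the class in both libraries were *Cd3e*, *Cd3g*, *Trac* and *Trbc2*. Others differed, with *Ccl1*, *Cd40lg*, *Themis* and *Cxcr6* in MRL/lpr and *Xcl1*, *Pdcd1*, *Ifng* and *Tnfrsf4* in MRL/lpr+hUC-MSC. The class may thus hold different cells in each, and its ratios cannot be told apart from such a difference. Empty droplets lay at 27.4 and 30.4 CPM, above the T cell-like level of 23.9 CPM in MRL/lpr and below that of 58.8 CPM in MRL/lpr+hUC-MSC. Of proximal tubule-like cells the treated library had 68, and there *Nfkbia* was at 0.61 (0.27 to 0.93), above MRL/lpr, while the interval of *Nfkbiz* at 0.18 (-0.28 to 0.62) included 0. The *Nfkbia* levels behind this ratio, 118 and 179 CPM, were below the empty droplets of their library, and the leading genes of the class differed between the libraries. In NK cell-like cells (86 and 63 cells) *Nfkb1* was at 1.08 (0.09 to 2.09), and the intervals of *Nfkbia* at -0.07 (-0.73 to 0.57), *Nfkbiz*, *Tnfaip3* and *Birc3* included 0, so *Nfkbia* was not lower in every class.

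**Figure D3:**
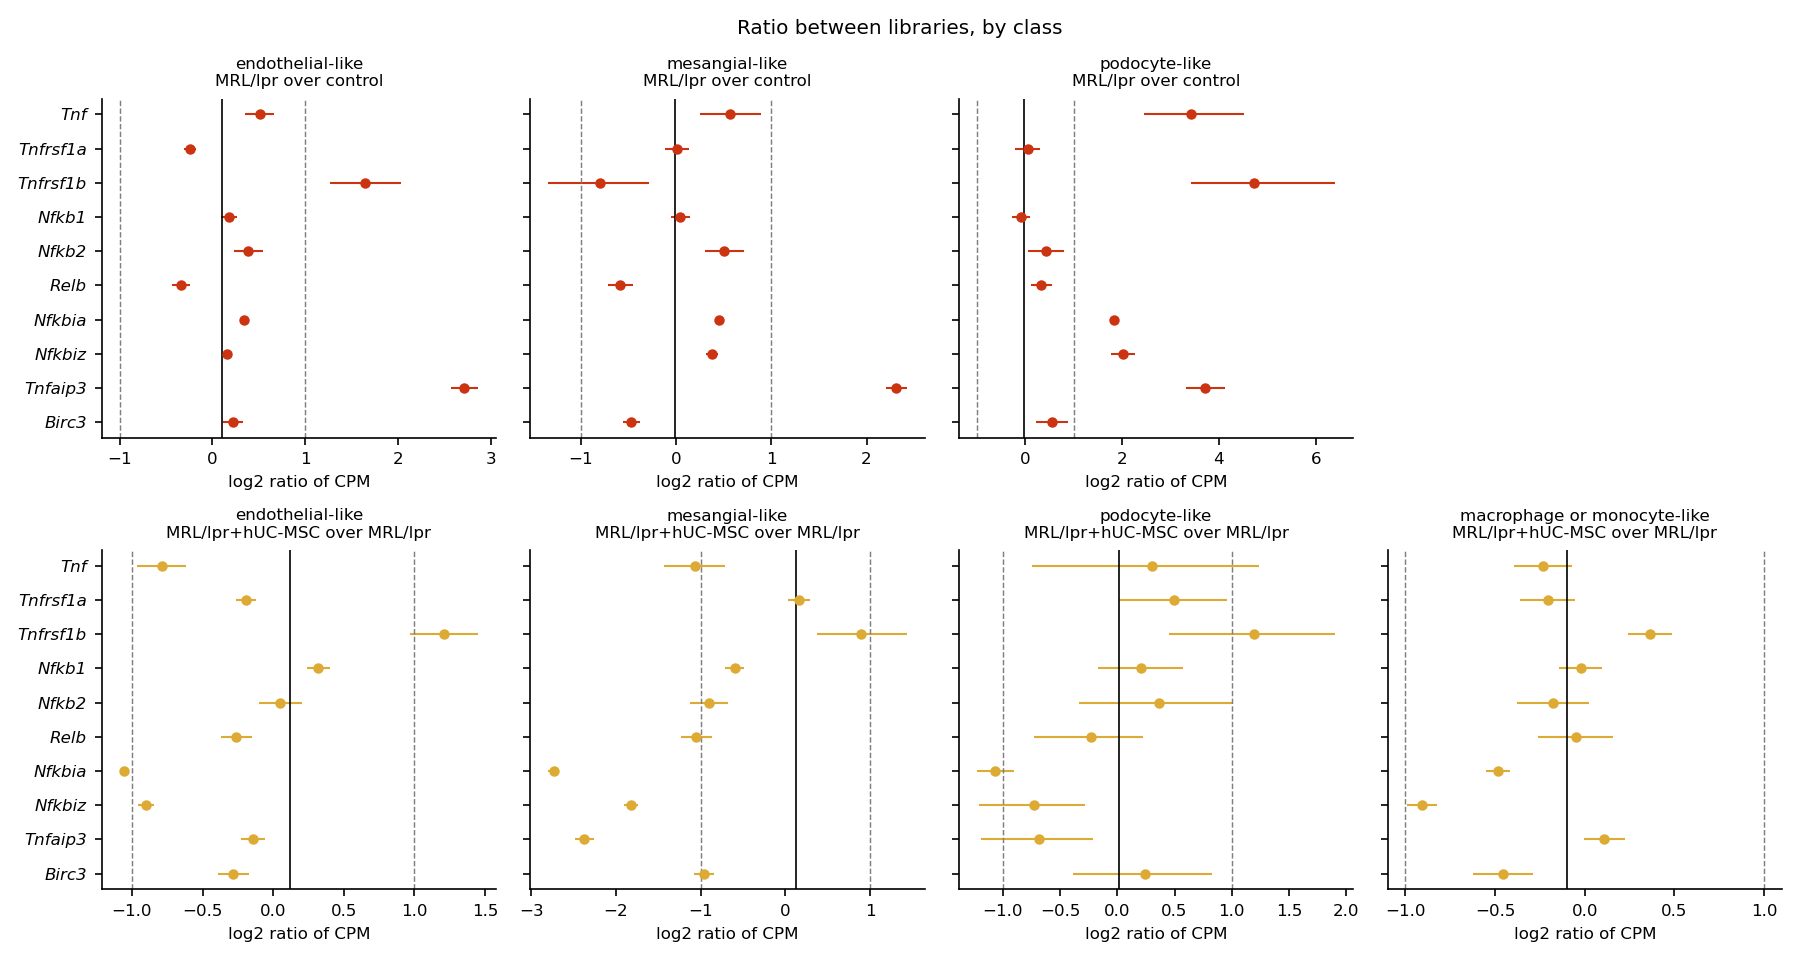
Log2 ratio of CPM between libraries (x axis) for each of the 10 genes, with exact conditional binomial 95% intervals as bars. The upper panels show MRL/lpr over control and the lower panels MRL/lpr+hUC-MSC over MRL/lpr, the solid line is the median of all genes tested and the dashed lines are 2-fold in either direction. In mesangial-like cells *Tnfaip3* is at 2.31 in the upper panel and at -2.37 in the lower, and *Nfkbia* is at 0.45 and -2.74.

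**Figure D4:**
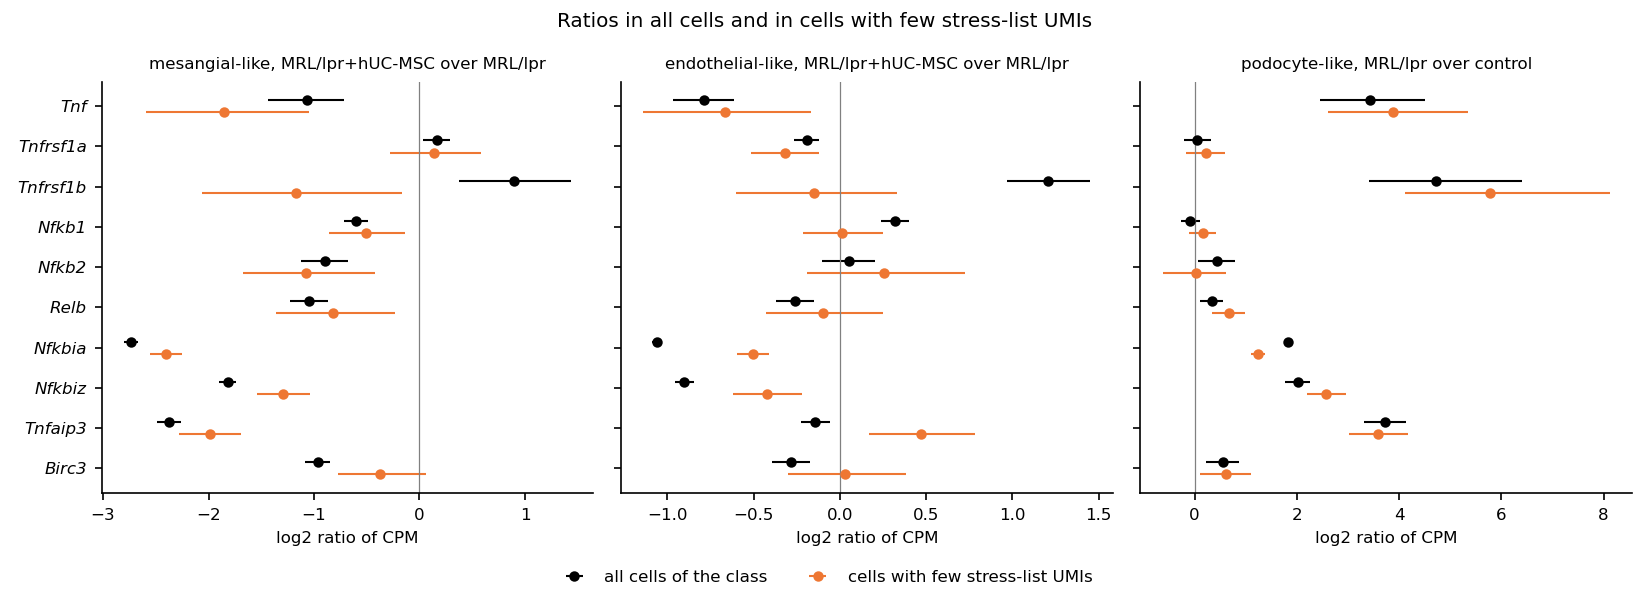
Log2 ratio of CPM between libraries (x axis) for the 10 genes in all cells of a class (black) and in its cells with at most 10 stress-list UMIs per 1000 UMIs (orange), with 95% intervals from counting. In mesangial-like cells *Nfkbia* is at -2.74 in all cells and -2.40 in the cells with few stress-list UMIs, and in endothelial-like cells at -1.06 and -0.50.

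Set directly beside control, the treated library differed by class. In mesangial-like cells the log2 ratio of MRL/lpr+hUC-MSC over control was -2.29 (-2.35 to -2.22) for *Nfkbia*, -1.63 (-1.79 to -1.47) for *Relb*, -1.44 (-1.52 to -1.36) for *Nfkbiz*, -1.43 (-1.54 to -1.33) for *Birc3* and -0.06 (-0.20 to 0.08) for *Tnfaip3*. Over all cells the interval of *Tnfaip3* included 0, and the other 4 members were below control. The summed stress list was also lower in the treated library, at 37114 CPM in control and 8779 CPM in MRL/lpr+hUC-MSC, and its part in these ratios was not tested. Among the 132 and 1060 mesangial-like cells with few stress-list UMIs *Tnfaip3* was at 2.06 (1.17 to 3.13) and *Nfkbiz* at 1.5 (0.97 to 2.09), above control, so *Nfkbiz* had the opposite sign to all cells. The levels there were 15.9 and 66.5 CPM of *Tnfaip3* and 46.2 and 131 CPM of *Nfkbiz*. All were below the empty droplets of their library, and free RNA was not subtracted in these cells. *Nfkbia* at -0.80 (-1.01 to -0.58), *Relb* at -0.85 (-1.33 to -0.35) and *Birc3* at -0.76 (-1.08 to -0.43) were below control there too. In endothelial-like cells the ratio was 2.57 (2.43 to 2.72) for *Tnfaip3* and -0.72 (-0.75 to -0.69) for *Nfkbia*. *Tnfaip3* of endothelial-like cells stayed above control in the treated library while *Nfkbia* was below it. In the endothelial-like cells with few stress-list UMIs (810 and 3322 cells) they were at 3.84 (3.17 to 4.60) and -0.41 (-0.49 to -0.34), and *Nfkbiz* was at 1.25 (1.00 to 1.51) against -0.75 (-0.80 to -0.69) over all cells. In these cells too, *Tnfaip3* at 5.77 and 82.6 CPM and *Nfkbiz* at 46.8 and 111 CPM were below the empty droplets of their library.

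The endothelial-like class could be divided by *Ehd3*, a gene of glomerular capillary endothelium. Cells with an *Ehd3* UMI numbered 5703, 4190 and 4983, and cells without one 371, 695 and 1614. *Tnfaip3* was at 14.1, 93.7 and 86.6 CPM with *Ehd3* and at 16.2, 91.0 and 74.4 CPM without, so the difference between MRL/lpr and control was present in both groups. *Nfkbia* was at 893, 1118 and 539 CPM with *Ehd3* and at 1256, 1435 and 614 CPM without, higher without *Ehd3* in each library. *Tnfrsf1a* was at 156, 132 and 118 CPM with and at 90.5, 112 and 93.1 CPM without. *Tnfrsf1b* was at 2.32, 8.06 and 17.0 CPM with and at 8.10, 8.27 and 27.3 CPM without. Whether a cell shows an *Ehd3* UMI depends on its depth as well as on its kind. Of the mesangial-like cells 73.4%, 62.1% and 59.5% also held an *Ehd3* UMI, and empty droplets had 409, 323 and 341 CPM of *Ehd3*. An *Ehd3* UMI alone therefore does not mark a glomerular capillary cell.

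Of the other genes of the pathway, 56 were followed in 6 lists. The lists were the receptor complex and IkB kinase (15 genes), other NF-kB and IkB family members (6), the alternative pathway (8), other feedback genes (11), target genes (12) and TNF-shedding proteases and their regulators (4). None of the 15 genes that carry the signal from the receptor to the kinase was past 2-fold in endothelial-like or mesangial-like cells in either comparison, with medians between -0.27 and 0.30. In podocyte-like cells 1 was lower in the treated library. In proximal tubule-like cells 7 were higher in MRL/lpr than in control, against 20.9% of all genes, and 2 were lower in the treated library, against 9.33%. In T cell-like cells 2 of 13 tested were higher and 1 lower in MRL/lpr than in control, against 14.5% and 5.91%. Distal nephron or collecting duct-like and NK cell-like cells also had such genes. None of the 4 shedding genes was past 2-fold in the 4 classes compared. Of the 11 other feedback genes, 3 in endothelial-like and 5 in mesangial-like cells were past 2-fold higher in MRL/lpr than in control and none lower, with medians of 0.51 and 0.22. Of the 8 genes of the alternative pathway, 7 were tested, and 2 in endothelial-like and 3 in mesangial-like cells were past 2-fold higher, with medians of 0.54 and -0.06. The 6 other NF-kB and IkB family genes had 1 higher and 1 lower in endothelial-like cells and 1 higher in mesangial-like cells. The target genes, by contrast, had a median log2 ratio of MRL/lpr over control of 1.27 in endothelial-like cells (7 of 12 past 2-fold higher), 0.98 in mesangial-like cells (6 of 12) and 2.48 in podocyte-like cells (9 of 12), with none past 2-fold lower. In podocyte-like cells 6 of the 10 stress-list genes were also past 2-fold higher and 2 lower, with a median of 1.16, beside the higher neutrophil and macrophage or monocyte markers given above. *Cxcl2*, 1 of the target genes, was at 78.0 CPM in podocyte-like and 5149 CPM in neutrophil-like cells of MRL/lpr, and the part of these in the target list was not tested. The shares of all genes past 2-fold higher are those given above, 15.4%, 11.5% and 13.0%. In erythroid-like cells, the second background, 4 of the 5 target genes tested were past 2-fold higher too, against 72.5% of all genes. Their median was 2.38, beside 1.66 for all genes. The target median was 1.58 in proximal tubule-like and 1.25 in T cell-like cells. Macrophage or monocyte markers were higher in endothelial-like and mesangial-like cells of MRL/lpr as well, and their part in the target list was not tested. In MRL/lpr+hUC-MSC over MRL/lpr the target genes had medians of -0.28 in endothelial-like cells (3 of 12 past 2-fold lower), -1.11 in mesangial-like cells (6 of 12 lower), -0.06 in podocyte-like cells (3 higher and 2 lower) and 0.07 in macrophage or monocyte-like cells (2 lower). The shares of all genes past 2-fold lower were 4.70%, 5.38%, 4.75% and 5.92% in these classes, and 4.72% were past 2-fold higher in podocyte-like cells. Of the 4 classes, the mesangial-like had the lowest median in the treated library for the members and for the targets alike.

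The highest and lowest of the 56 genes were named in each comparison. In endothelial-like cells of MRL/lpr over control these were *Ccl2*, a monocyte chemokine, at 4.85 (4.37 to 5.37) and *Vcam1*, an adhesion molecule, at 4.52 (4.40 to 4.64), and at the other end *Nfkbid* at -1.34 (-1.53 to -1.15) and *Bcl2l1* at -0.96 (-1.04 to -0.89). In mesangial-like cells they were *Tnip3*, an A20-binding protein, at 4.70 (2.05 to 10.08) on 1 UMI in control and 19 in MRL/lpr, and *Sele* (E-selectin) at 3.57, against *Tax1bp1* at -0.94 and *Ripk1* at -0.88. In podocyte-like cells they were *Ccl2* at 5.59 on 6 and 120 UMIs and *Cxcl2* at 4.88, against *Tax1bp1* at -1.11 and *Traf5* at -0.94. *Ccl2* was thus among the highest in endothelial-like and podocyte-like cells, and *Tax1bp1*, an adaptor of A20, among the lowest in mesangial-like and podocyte-like cells.

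After treatment the lower end in mesangial-like cells was *Cxcl1* at -3.19 (-3.24 to -3.14) and *Cxcl2* at -3.06 (-3.14 to -2.98), both neutrophil-attracting chemokines, and the upper end *Tab3* at 0.96 and *Tnfsf13b* (BAFF) at 0.76. In endothelial-like cells it was *Zfp36* at -1.40 (-1.43 to -1.38), whose protein destabilises *Tnf* mRNA, and *Cxcl1* at -1.31, against *Tnip3* at 1.73 and *Traf3* at 0.81. In podocyte-like cells *Ccl2* was at 2.46 and *Tnip3* at 2.04, against *Il6* at -1.49 and *Cxcl1* at -1.33. In macrophage or monocyte-like cells *Sele* was at 0.81 and *Tnfrsf11a* at 0.58, against *Il6* at -1.87 and *Vcam1* at -1.70. *Cxcl1* was at the lower end in each of the 3 kidney classes. *Vcam1* was at 461 and 142 CPM in this class, while the endothelial markers, summed, were at 323 and 343 CPM. *Sele* is an endothelial gene, and 257 barcodes of MRL/lpr and 782 of MRL/lpr+hUC-MSC were held back because they fitted the endothelial-like and macrophage or monocyte-like classes together. The part of such barcodes in the values of this class was not tested.

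**Figure D5:**
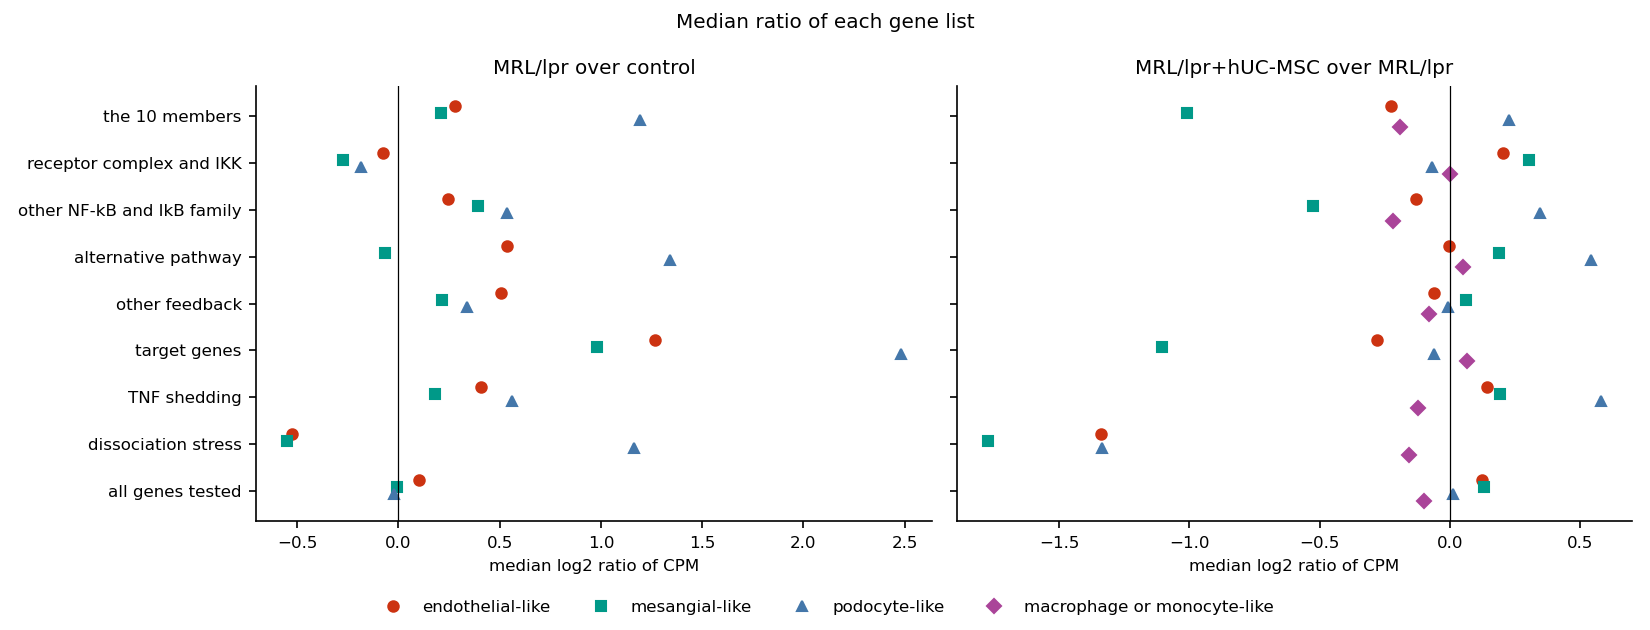
Median log2 ratio of CPM (x axis) of the 10 members, of each pathway list, of the dissociation stress list and of all genes tested, by class (symbol), for MRL/lpr over control (left) and MRL/lpr+hUC-MSC over MRL/lpr (right). In mesangial-like cells the medians of the members and of the target genes are -1.01 and -1.11 in the right panel, beside -1.77 for the stress list and 0.13 for all genes.

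Cells with a *Tnf* UMI after thinning were compared with the other cells of their class and library. In macrophage or monocyte-like cells of MRL/lpr (137 with and 1131 without) the log2 ratio of CPM was 1.1 (0.92 to 1.28) for *Cxcl2*, 1.09 (0.57 to 1.58) for *Nfkb1*, 0.85 (0.54 to 1.16) for *Nfkbiz* and 0.80 (0.53 to 1.07) for *Nfkbia*. In the treated library (152 with and 1986 without) it was 1.15 (0.99 to 1.30) for *Cxcl2*, 1.12 (0.38 to 1.80) for *Birc3*, 0.64 (0.21 to 1.04) for *Nfkbiz* and 0.61 (0.29 to 0.90) for *Nfkbia*. *Cxcl2*, *Nfkbia* and *Nfkbiz* were thus higher in the *Tnf*-positive cells of this class in both libraries. *Nfkb1* in the treated library at 0.30 (-0.29 to 0.84) and *Birc3* in MRL/lpr at 0.43 (-0.43 to 1.20) had intervals that included 0. *Tnfaip3* was at 0.04 (-0.71 to 0.71) and 0.21 (-0.37 to 0.74), intervals that include 0. In endothelial-like cells the *Nfkbia* intervals included 0, at 0.10 (-0.21 to 0.40), 0.06 (-0.20 to 0.31) and 0.29 (-0.09 to 0.64) in control, MRL/lpr and MRL/lpr+hUC-MSC. *Cxcl2* was higher there, at 3.95, 1.45 and 1.53. Some members had an interval above 0 there, each in a single library. They were *Nfkbiz* at 0.69 (0.15 to 1.18) in control and *Relb* at 1.21 (0.19 to 2.07) in MRL/lpr+hUC-MSC. In MRL/lpr they were *Tnfaip3* at 0.92 (0.12 to 1.61) and *Tnfrsf1b* at 2.45 (0.49 to 3.95), the latter on 4 and 32 UMIs. Endothelial-like *Tnf* was close to or below the empty droplets in both MRL/lpr libraries, and the part of free RNA here was not tested. In neutrophil-like cells of MRL/lpr *Nfkbia* was at 0.56 (0.33 to 0.79) and *Cxcl2* at 0.66 (0.51 to 0.81). The intervals of *Nfkbiz* at -0.47 (-1.23 to 0.23) and *Tnfaip3* at -0.23 (-1.31 to 0.72) included 0. All cells were set to 1000 UMIs, so these ratios compare cells of equal depth.

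Over the 26 combinations of a class and a library with at least 50 cells, the 12301 genes with at least 500 UMIs were ranked by the Pearson correlation of log2(CPM + 1) with each member. The points share libraries, depth and free RNA, so the correlations are descriptions. *Tnf* was most like *Slfn2* (r = 0.918), *Map3k14* (r = 0.910) and *Zc3h12a* (r = 0.905), and *Tnfrsf1b* most like *Myo1f* (r = 0.968), *Hcls1* (r = 0.963) and *Snx20* (r = 0.961). *Tnfrsf1a* was most like *Myd88* (r = 0.947), *Dusp1* (r = 0.919) and *Bach1* (r = 0.917). *Map3k14* and *Zc3h12a* are in the pathway lists described above. *Nfkbia* was most like *Ccnl1* (r = 0.936), *Irf1* (r = 0.911) and *Mcl1* (r = 0.911), and *Tnfaip3* most like *Pim1* (r = 0.944), *Dusp5* (r = 0.944) and *Vasp* (r = 0.925). *Nfkbiz* was most like *Myd88* (r = 0.914), *Ier5* (r = 0.909) and *Man2a1* (r = 0.895), and *Birc3* most like *Zcchc2* (r = 0.920), *Rap2a* (r = 0.916) and *Dleu2* (r = 0.911). *Myd88*, the adaptor of Toll-like receptors, was thus at the top for a TNF receptor and for *Nfkbiz*. *Nfkb1* was most like *Mrtfa* (r = 0.953), *Mef2d* (r = 0.952) and *Atp1b3* (r = 0.948), *Nfkb2* most like *Cyb5r1* (r = 0.927), *Lyn* (r = 0.906) and *Gab2* (r = 0.890), and *Relb* most like *Nr4a1* (r = 0.925), *Slc44a2* (r = 0.909) and *Hip1* (r = 0.890). Among the members themselves r ran from 0.476 for *Tnfrsf1b* and *Nfkb2* to 0.906 for *Nfkb1* and *Birc3*.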

How the data were processed

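Single-cell 3-prime RNA libraries were prepared from glomeruli isolated by collagenase digestion, gradient centrifugation and differential adhesion. The authors deposited whole-number UMI counts per gene and barcode for all barcodes before cells were called, without normalization. The submitters' processing notes name Cell Ranger, STAR and mm10. The study's methods give Cell Ranger 1.1.0, whereas the file headers name version 4, and the STAR version is not given in the sources used here.

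Barcodes with at least 1000 UMIs and at most 10% mitochondrial UMIs were kept. Each of 13 classes had 8 markers, and a cell entered a class with at least 3 distinct markers and 2 more than for any other class, which set aside barcodes that fitted a pair of classes. No doublet caller was used for the values of the report, and Scrublet was an alternative. UMIs were summed over a class and scaled to 1000000. Levels had exact Poisson intervals, ratios between libraries exact conditional binomial intervals and shares Clopper-Pearson intervals, all at 95%. These cover counting error only. Genes with at least 20 UMIs over both libraries were compared, with no pseudocount, and past 2-fold replaces a test. For shares, each cell was thinned to 1000 UMIs. The floor for a count of 0 was 3 UMIs, or 3 cells for a share. The calculation of the ratios was checked on simulated counts with known fold changes. These counts held counting error alone, as the intervals assume, so the check does not cover spread between cells or libraries.

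The members, gene lists and tests were chosen with earlier results of these data known. All 10 members were computed in every class with at least 50 cells in a library and named in the larger classes. In the smaller classes only some were named, and not every member that differed is given with a ratio. Of the other lists, the 2 highest and 2 lowest ratios of each comparison were named, and for each member the 3 genes of highest correlation. Gene models were taken from GENCODE M21 and promoters from RefSeq, both on GRCm38. The work used scanpy 1.11.5 with igraph 0.11.9, and scipy 1.17.1 with numpy 2.4.6, under Python 3.11.15, with figures by matplotlib 3.10.9 and tables by pandas 2.3.3.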

Additional observations from a re-analysis of the deposited data

Results flagged for a closer look

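In 6 cases the ratios of a gene differed in sign between classes under the same comparison, with both ratios past 1.5-fold and intervals from counting that did not include 0. In MRL/lpr+hUC-MSC over MRL/lpr the mesangial-like ratio was the lower, on the log2 scale, for 4 genes. *Tnf* was at 1.30 in T cell-like and -1.07 in mesangial-like cells, and *Nfkb1* at 1.08 in NK cell-like and -0.60 in mesangial-like cells. *Relb* was at 1.29 in proximal tubule-like and -1.05 in mesangial-like cells, and *Nfkbia* at 0.61 in proximal tubule-like and -2.74 in mesangial-like cells. In MRL/lpr over control *Tnfrsf1b* was at 4.73 in podocyte-like and -0.95 in T cell-like cells. *Nfkbia* was there at 1.83 in podocyte-like and -0.73 in distal nephron or collecting duct-like cells, a class whose leading genes differed between the libraries. That case is listed because it meets the rule, and no direction is read from the distal class. With 1 library a group, none of these differences was tested. The NK cell-like and proximal tubule-like values rest on 63 and 68 treated cells. The treated proximal tubule-like levels, 179 CPM of *Nfkbia* and 16.8 CPM of *Relb*, were below the empty droplets. Leading genes of the proximal tubule-like and T cell-like classes differed between MRL/lpr and MRL/lpr+hUC-MSC.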

How the results depend on the processing

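Medians of the 10 members were recomputed under each alternative. In mesangial-like cells of MRL/lpr+hUC-MSC over MRL/lpr the median stayed between -1.14 and -0.83 under all 11 alternatives, in podocyte-like cells between 0.04 and 0.36 and in macrophage or monocyte-like cells between -0.31 and -0.09, under 10 each. The endothelial-like median of MRL/lpr over control, 0.28, was 1.19 with at most 5% ribosomal UMIs, -0.046 with free RNA subtracted and 0.89 in cells with few stress-list UMIs. The endothelial-like median of MRL/lpr+hUC-MSC over MRL/lpr, -0.23, was 0.072 with at most 5% ribosomal UMIs, -0.35 when centred on all genes and -0.12 in cells with few stress-list UMIs. The mesangial-like median of MRL/lpr over control, 0.21, was 0.46 in barcodes with 200 to 3000 genes, 0.68 with at most 5% ribosomal UMIs, 0.34 as the mean of single-cell CPM and 1.03 in cells with few stress-list UMIs. The podocyte-like median of MRL/lpr over control, 1.19, was 1.44 as the mean of single-cell CPM and 0.96 in cells with few stress-list UMIs. *Tnfrsf1b* in endothelial-like cells reversed, to -0.13 in MRL/lpr over control with free RNA subtracted and to -0.15 in MRL/lpr+hUC-MSC over MRL/lpr in cells with few stress-list UMIs. The cause of these shifts was not tested. The alternative of few stress-list UMIs was chosen after seeing the data.

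Of 70 ratios of a member in a class and comparison, 17 were past 2-fold, 10 of them were past 2-fold under every alternative run for them and 2 had another sign under at least 1. Ratios centred on all genes move by -0.10 in endothelial-like cells of MRL/lpr over control, and by -0.12, -0.13 and 0.10 in endothelial-like, mesangial-like and macrophage or monocyte-like cells of MRL/lpr+hUC-MSC over MRL/lpr. Leiden clusters gave no control cluster named endothelial, and at most 5% ribosomal UMIs left under 50 podocyte-like or macrophage or monocyte-like cells in a library, so these alternatives were not run. No paired analysis was possible because each group is 1 library. Depth limits members with few UMIs, such as *Tnf* and *Tnfrsf1b* in podocyte-like cells of control.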
